A study of Mus musculus with 24 samples.

Results

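The effect of losing Tatdn1 on gene expression was compared between brain cortex and cardiac ventricle. For each gene-level probe set of the Mouse Clariom S HT array, the difference Tatdn1-/- minus Tatdn1+/+ was taken in cortex and in ventricle, and the ventricle difference was subtracted from the cortex difference. This value is called the tissue difference here: it is positive where the Tatdn1-/- value lay higher, relative to Tatdn1+/+, in cortex than in ventricle, and negative in the opposite case. All 24 arrays of the series entered, chosen by the tissue and genotype labels, and 22206 probe sets were tested, of which 19572 carry 1 gene symbol. The groups were Tatdn1-/- cortex, Tatdn1+/+ cortex, Tatdn1-/- ventricle and Tatdn1+/+ ventricle, with 6 arrays each from 3 males and 3 females. All mice were adult, C57/B6 by the title of the series and on a C57BL/6J background by the methods, and were 2 months old. The 12 mice gave 1 array per tissue, so the tissues come from the same mice.

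The knockout mice lack exon 3 of Tatdn1 in the whole body, because the floxed exon had been removed with a CAG-Cre transgene that was later bred out of the line. The line started from targeted embryonic stem cells and had been crossed with FLPe mice to remove the neomycin cassette. All Tatdn1-/- mice carry the codes 77 or 78 and all Tatdn1+/+ mice 75 or 76. The labels do not explain these codes, and anything they mark cannot be told apart from genotype. TATDN1 belongs to the TatD family of metal-dependent nucleases, which is conserved from bacteria to mammals. The ventricle is mainly contractile muscle and the cortex mainly neurons and glia. A gene can therefore respond to the same deletion in one tissue, in both, or in opposite directions. In bulk tissue, fewer cells of a type and less RNA per cell cannot be told apart.

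The tissue labels were borne out by defining markers. The 7 cardiomyocyte markers, such as Myh6 and Tnnt2, lay at log2 values of 1.3 to 7.16 on the cortex arrays and 9.07 to 11.46 on the ventricle arrays. The 6 neuron markers, such as Snap25 and Rbfox3, lay at 8.16 to 11.68 on the cortex arrays and 1.0 to 9.08 on the ventricle arrays. A probe set was called above background where its mean passed the 95th percentile of 23 background control probe sets, a log2 value of 3.8574 in cortex and 4.4697 in ventricle. By this limit 7623 probe sets were above background in both tissues and 10736 in neither. The cortex array of Tatdn1-/- male M78-1 had the lowest weight when arrays were weighted by their scatter (0.263, the highest being 2.37).

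Tatdn1 itself was lower in both tissues of the knockout, by unequal amounts. In cortex its lowest, median and highest log2 values were 4.44, 5.11 and 5.31 in Tatdn1-/- mice, against 5.29, 5.81 and 6.15 in Tatdn1+/+ mice, and only the highest Tatdn1-/- array reached into the Tatdn1+/+ range. In ventricle they were 4.97, 5.40 and 6.03 in Tatdn1-/- mice, against 6.53, 6.87 and 7.15 in Tatdn1+/+ mice, with no overlap. The knockout effect was -0.78 in cortex (limma, adjusted p = 0.0829) and -1.36 in ventricle (adjusted p = 0.000815), a tissue difference of 0.58 ± 0.25 (SE). This difference had an unadjusted p of 0.0302 and an adjusted p of 0.462 by limma, and an exact permutation p of 0.00649 over the 12 mice. The means of the Tatdn1-/- arrays were closer to each other, at 4.99 in cortex and 5.49 in ventricle, than those of the Tatdn1+/+ arrays, at 5.77 in cortex and 6.85 in ventricle.

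Across all probe sets, 3 had a tissue difference that passed the test (limma, adjusted p under 0.05; 0.0135% of 22206), 1 of them positive (0.0045%) and 2 negative (0.00901%). The number with an unadjusted p under 0.05 was 2118 (9.54%), of which 716 were positive (3.22% of all probe sets) and 1402 negative (6.31%). For comparison, the knockout effect passed the test at 34 probe sets in cortex (0.153%), of which 25 were lower (0.113%) and 9 higher (0.0405%) in Tatdn1-/- mice, and at 24 in ventricle (0.108%), of which 8 were lower (0.036%) and 16 higher (0.0721%). No probe set passed for a difference of the tissue difference between males and females by limma, and 1044 had an unadjusted p under 0.05. With the mouse as a fixed block in the fit, which takes up the pairing of the tissues, no probe set passed for the tissue difference by limma and 1994 had an unadjusted p under 0.05, and with the mouse as a random block the same 3 passed.

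The genes that passed were Hebp1, Afmid and E130304I02Rik, and each had effects of opposite sign in the tissues. Hebp1 encodes a cytosolic heme-binding protein. In cortex its lowest, median and highest values were 4.59, 5.04 and 5.28 in Tatdn1-/- mice, against 5.51, 5.65 and 5.78 in Tatdn1+/+ mice. In ventricle they were 4.72, 5.39 and 5.77 in Tatdn1-/- mice, against 4.45, 4.87 and 4.96 in Tatdn1+/+ mice. The cortex groups did not overlap, with Tatdn1-/- below, whereas in ventricle 5 of 6 Tatdn1-/- arrays lay above all Tatdn1+/+ arrays. The effect was -0.63 in cortex (limma, adjusted p = 0.0829) and 0.53 in ventricle (adjusted p = 0.16), so that neither tissue passed alone. Their tissue difference was -1.17 ± 0.21 (SE; adjusted p = 0.0385), with an exact permutation p of 0.00216, the smallest that 6 against 6 mice can give. Within single mice, cortex minus ventricle ran between -0.84 and 0.42 in Tatdn1-/- mice and between 0.65 and 1.29 in Tatdn1+/+ mice, with no overlap. Such a separation of the mouse differences was seen at 125 probe sets (0.563%).

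Afmid encodes arylformamidase, which releases kynurenine from N-formylkynurenine in tryptophan breakdown. In cortex, where it was below the background limit, its lowest, median and highest values were 2.59, 3.01 and 3.44 in Tatdn1-/- mice, against 3.13, 3.33 and 3.65 in Tatdn1+/+ mice. In ventricle they were 5.44, 5.54 and 6.35 in Tatdn1-/- mice, against 4.18, 4.78 and 5.0 in Tatdn1+/+ mice. The ventricle groups did not overlap and the cortex groups did. Afmid rose by 1.00 in ventricle (limma, adjusted p = 0.00532) and its effect in cortex was -0.35 (adjusted p = 0.702). The tissue difference was -1.35 ± 0.23 (SE; adjusted p = 0.0385), and cortex minus ventricle ran between -3.41 and -2.09 in Tatdn1-/- mice and between -1.75 and -0.73 in Tatdn1+/+ mice.

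E130304I02Rik, a RIKEN transcript, had the opposite order and was above background in neither tissue. In cortex its lowest, median and highest values were 2.86, 3.18 and 3.51 in Tatdn1-/- mice, against 2.21, 2.79 and 2.98 in Tatdn1+/+ mice. In ventricle they were 2.37, 2.56 and 3.25 in Tatdn1-/- mice, against 3.15, 3.44 and 4.06 in Tatdn1+/+ mice. The groups overlapped in both tissues. The effect was 0.53 in cortex (limma, adjusted p = 0.425) and -0.87 in ventricle (adjusted p = 0.033), a tissue difference of 1.39 ± 0.25 (SE; adjusted p = 0.0385). All 3 genes kept their sign in males and in females. Hebp1 had a tissue difference of -1.24 in males and -1.09 in females, Afmid of -1.27 and -1.43 in the same order, and E130304I02Rik of 1.5 and 1.29.

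**Figure D1:**
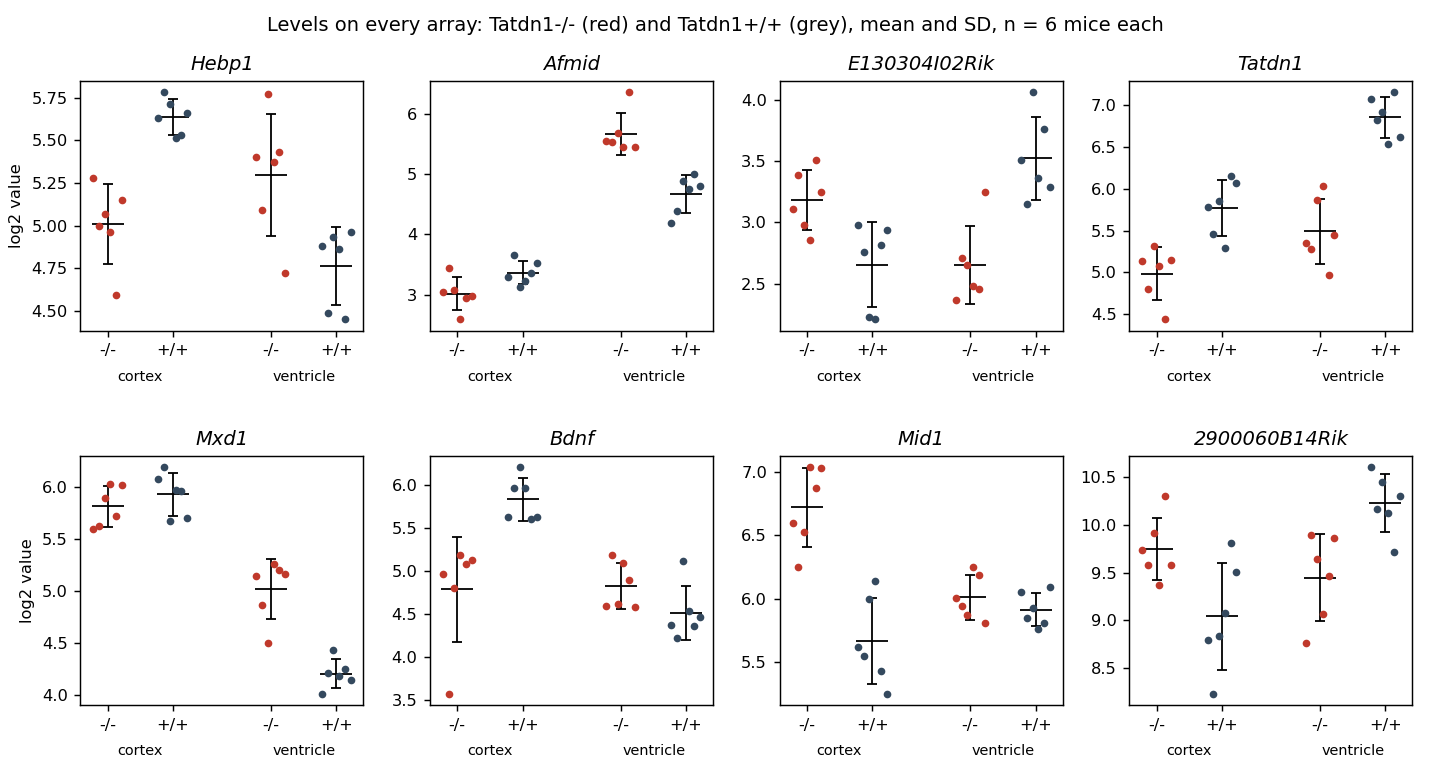
Log2 value on every array for 8 genes, with Tatdn1-/- (red) left of Tatdn1+/+ (grey) in cortex and in ventricle; each point is 1 mouse and the bars give mean and SD of 6 mice. Hebp1 lies lower in Tatdn1-/- cortex and higher in Tatdn1-/- ventricle, Afmid and Mxd1 separate the genotypes in ventricle, and Bdnf and Mid1 separate them in cortex.

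A tissue difference can come from an effect in a single tissue or from opposite effects. Of the 2118 probe sets with an unadjusted p under 0.05 for the tissue difference, 603 (28.5%) had such a p for the effect in cortex alone and 883 (41.7%) in ventricle alone. A further 109 (5.15%) had it in both tissues and 523 (24.7%) in neither. The cortex and ventricle effects were opposite in sign at 93.4% of the 2118, against 53.3% of all 22206 probe sets. A large tissue difference favours opposite signs by its construction, so the share is given as a description. A tissue difference of at least 1 log2 unit in either direction was seen at 95 probe sets (0.428%).

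The unadjusted p was under 0.05 in both tissues at 174 probe sets. In cortex 1518 had such a p (6.84% of all probe sets; 4.6% lower and 2.24% higher in Tatdn1-/- mice), and in ventricle 2098 (9.45%; 3.66% lower and 5.79% higher). The 174 that had it in both are 11.5% of those in cortex, beside 9.45% of all probe sets with such a p in ventricle. They are 8.29% of those in ventricle, beside 6.84% of all probe sets with such a p in cortex. Of these, 107 had effects of opposite sign and 67 of the same sign. In males alone 52 were opposite and 42 the same, and in females alone 51 were opposite and 89 the same, so that the order turned in females. Among the 107, 70 were lower in Tatdn1-/- cortex and higher in Tatdn1-/- ventricle (0.315% of all probe sets), and 37 were higher in Tatdn1-/- cortex and lower in Tatdn1-/- ventricle (0.167%). This order turned with the scaling of the arrays: 37 were lower in cortex and higher in ventricle, and 55 the reverse, after quantile normalisation within each tissue. The counts were 33 and 40, in the same order, after quantile normalisation over all 24 arrays, and 29 and 58 after centring each array on its median. Among the 67, 41 were lower (0.185%) and 26 higher (0.117%) in both. Over all probe sets the effects in cortex and ventricle had a Pearson r of -0.064 (22206 probe sets, which are not independent and come from the same 12 mice). Without mouse M78-1, 79 were opposite and 74 the same, and r was -0.001.

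**Figure D2:**
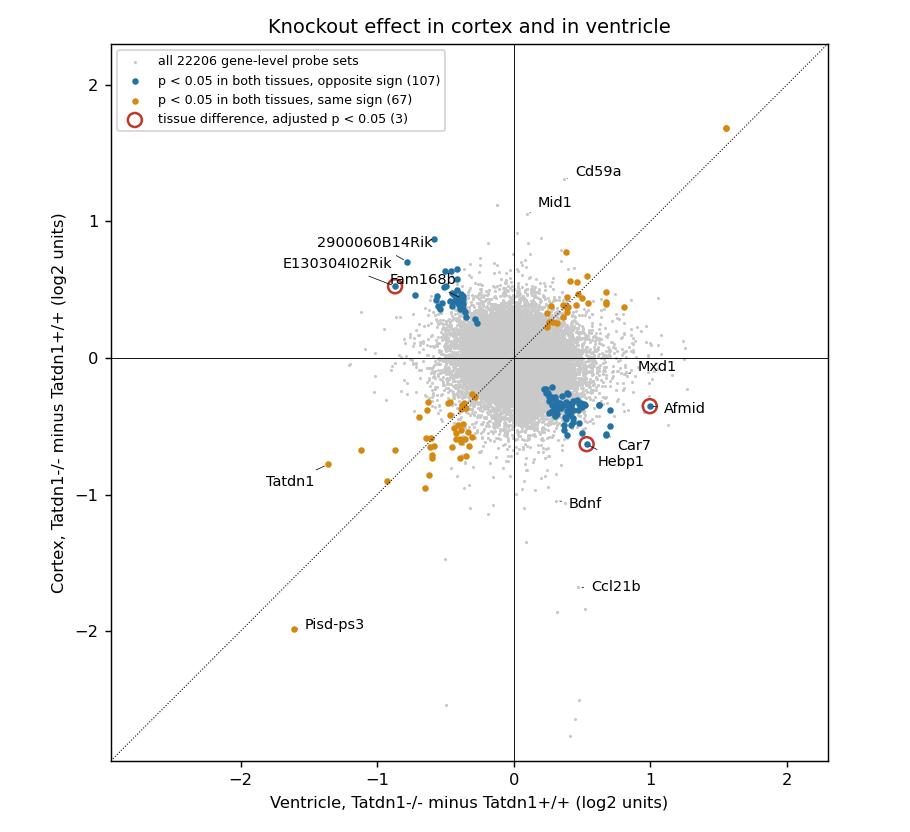
Knockout effect in cortex (vertical axis) against that in ventricle (horizontal axis), both Tatdn1-/- minus Tatdn1+/+ in log2 units, for 22206 probe sets; the dotted line marks equal effects. Blue points (107) have an unadjusted p under 0.05 in both tissues with opposite sign, orange points (67) with the same sign, and red circles mark the 3 probe sets whose tissue difference passed the test.

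Opposite effects were measured at genes of several functions. Psmd9, an assembly chaperone of the proteasome, had values of 4.69, 5.10 and 5.35 (lowest, median, highest) in Tatdn1-/- cortex, against 5.14, 5.51 and 5.78 in Tatdn1+/+ cortex. In ventricle it had 5.67, 5.80 and 6.09 in Tatdn1-/- mice, against 5.17, 5.46 and 5.75 in Tatdn1+/+ mice. The groups overlapped in both tissues, yet cortex minus ventricle within a mouse did not, running between -1.06 and -0.50 in Tatdn1-/- mice and between -0.21 and 0.28 in Tatdn1+/+ mice. Its effects were -0.42 in cortex and 0.41 in ventricle, with a tissue difference of -0.83 ± 0.18 (SE; limma, adjusted p = 0.105). Epm2aip1, which encodes a partner of the glycogen phosphatase laforin, had nearly the same effects, -0.41 in cortex and 0.41 in ventricle (tissue difference -0.82). Sgce, the epsilon subunit of the sarcoglycan complex, had -0.36 in cortex and 0.31 in ventricle, and its ventricle groups did not overlap (6.07 to 6.32 in Tatdn1-/- mice, 5.66 to 6.0 in Tatdn1+/+ mice).

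Mlx, a partner of glucose-responsive transcription factors, did not overlap in cortex (5.78 to 6.27 in Tatdn1-/- mice, 6.34 to 6.65 in Tatdn1+/+ mice) and had effects of -0.37 in cortex and 0.35 in ventricle. Car7, a carbonic anhydrase, had -0.57 in cortex and 0.68 in ventricle, a tissue difference of -1.25. At Psmd9, Epm2aip1, Sgce, Mlx and Car7 the mouse differences of the genotypes did not overlap, and none passed the test over all probe sets (limma, adjusted p from 0.105 to 0.2). Over all probe sets 0.563% had such a separation. The genes named here and below were picked by small p values, which favours it, so it adds no separate evidence. Where only the probe sets above background in both tissues were fitted, Psmd9 and Epm2aip1 (limma, adjusted p = 0.0293 each), Sgce (0.0406) and Car7 (0.0441) passed, as did Bdnf, Mxd1, Mid1 and Fam168b (0.0293 each). This filter used the mean over both genotypes. Mxd1 entered it through its higher Tatdn1-/- values in ventricle, so its pass adds no separate evidence. At Bdnf the Tatdn1+/+ median in ventricle lay below the background limit.

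The reverse order was seen at 2900060B14Rik and Fam168b. 2900060B14Rik had values of 9.37, 9.66 and 10.30 in Tatdn1-/- cortex, against 8.23, 8.96 and 9.81 in Tatdn1+/+ cortex. Its ventricle values were 8.76, 9.55 and 9.90 in Tatdn1-/- mice, against 9.72, 10.24 and 10.61 in Tatdn1+/+ mice. The groups overlapped in both tissues. The effects were 0.71 in cortex and -0.78 in ventricle and the tissue difference 1.49 ± 0.32 (SE; limma, adjusted p = 0.105). Fam168b, a membrane protein known as an inhibitor of neurite outgrowth, had effects of 0.44 in cortex and -0.38 in ventricle. Its mouse differences did not overlap, at 1.69 to 2.42 in Tatdn1-/- mice and 0.65 to 1.43 in Tatdn1+/+ mice. Reln, which encodes the secreted neuronal guidance protein reelin, also had a positive tissue difference (0.83), with effects of 0.38 in cortex and -0.45 in ventricle, where it was below background.

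Other large tissue differences came from a single tissue. Mxd1, a repressor that competes with MYC for MAX, had values of 5.59, 5.80 and 6.03 in Tatdn1-/- cortex, against 5.67, 5.97 and 6.19 in Tatdn1+/+ cortex. In ventricle it had 4.50, 5.15 and 5.26 in Tatdn1-/- mice, against 4.01, 4.19 and 4.43 in Tatdn1+/+ mice. The ventricle groups did not overlap, and Mxd1 rose there by 0.82 (limma, adjusted p = 0.00532), with -0.12 in cortex. The tissue difference of -0.94 ± 0.19 (SE) had an adjusted p of 0.0803 by limma. All its Tatdn1+/+ ventricle values lay below the background limit of 4.4697 there, and all its Tatdn1-/- ventricle values above it.

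Gcc1, a golgin of the trans-Golgi, also rose in ventricle, by 0.75 (limma, adjusted p = 0.0343), with 4.11 to 4.90 in Tatdn1-/- mice and 3.52 to 4.03 in Tatdn1+/+ mice. Its mean in ventricle lay below the background limit. It had an effect of -0.31 in cortex and a tissue difference of -1.07 (adjusted p = 0.0803). Amy1, a starch-digesting amylase, fell in ventricle by 1.20 (adjusted p = 0.00784), with an effect of -0.05 in cortex, where it was below background. Over the alternatives its tissue difference ran between 0.4 and 1.91. The paper reports that amylase-1 lay under the detection limit of its RT-qPCR.

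Mid1, a microtubule-bound ubiquitin ligase whose gene spans the pseudoautosomal boundary in laboratory mice, was changed in cortex. Its values there were 6.25, 6.74 and 7.04 in Tatdn1-/- mice, against 5.25, 5.59 and 6.14 in Tatdn1+/+ mice, with no overlap. In ventricle they were 5.81, 5.98 and 6.25 in Tatdn1-/- mice, against 5.76, 5.89 and 6.09 in Tatdn1+/+ mice, and the groups overlapped. Mid1 rose by 1.05 in cortex (limma, adjusted p = 0.00107) and its effect in ventricle was 0.09. The tissue difference of 0.96 ± 0.21 (SE) had an adjusted p of 0.105, and was 0.74 in males and 1.18 in females.

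The Ccl21 copies encode a chemokine that draws dendritic cells and T cells to lymph nodes. One probe set named Gm10591 had values of 2.19, 2.64 and 6.18 in Tatdn1-/- cortex, against 5.16, 5.91 and 6.87 in Tatdn1+/+ cortex. Its ventricle values were 6.46, 8.11 and 8.34 in Tatdn1-/- mice, against 6.92, 7.52 and 7.98 in Tatdn1+/+ mice. In cortex 5 of 6 Tatdn1-/- arrays lay below all Tatdn1+/+ arrays, and female F77-3 lay within the Tatdn1+/+ range. The probe set fell by 2.77 in cortex (limma, adjusted p = 0.00503), had an effect of 0.41 in ventricle and a tissue difference of -3.18 ± 0.64 (SE; adjusted p = 0.0803). The tissue difference was -3.75 without F77-3 (limma, adjusted p = 1.4e-05) and -3.41 without M78-0 (adjusted p = 0.0428). It also passed among the probe sets above background in both tissues (adjusted p = 0.0293). That filter used the mean over both genotypes, and the Tatdn1-/- median in cortex (2.64) lay below the background limit there. The probe set thus entered mainly through its higher Tatdn1+/+ values, and this pass adds no separate evidence for the difference. Gm13304 had a tissue difference of -2.99, Ccl21b of -2.15 and -2.18 at separate probe sets, and Ccl21a of -1.44. These genes are nearly identical copies, some of their probe sets held identical values, and the copy a signal comes from is uncertain.

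Same-sign effects were led by Entpd4, a nucleotide-hydrolysing enzyme of the Golgi. One of its probe sets had values of 8.28, 8.89 and 8.96 in Tatdn1-/- cortex, against 9.55, 9.74 and 9.93 in Tatdn1+/+ cortex. In ventricle it had 9.12, 9.23 and 9.37 in Tatdn1-/- mice, against 9.73, 9.90 and 10 in Tatdn1+/+ mice. The genotypes did not overlap in either tissue. Entpd4 fell by 0.95 in cortex (limma, adjusted p = 0.000105) and by 0.65 in ventricle (adjusted p = 0.00847), and the tissue difference was -0.30 ± 0.16 (SE; adjusted p = 0.567). A further probe set of this gene had -0.65 in cortex and -0.61 in ventricle.

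Uqcrc2, a core subunit of respiratory complex III, fell in ventricle by 0.69 (limma, adjusted p = 0.0236) and had an effect of -0.43 in cortex (adjusted p = 0.375). Tsr3, an enzyme of ribosomal RNA modification, fell in cortex by 0.58 (adjusted p = 0.0417) and had an effect of -0.31 in ventricle. Plac9a fell in cortex by 0.73 (adjusted p = 0.0459) with -0.39 in ventricle, and Trim39, a ubiquitin ligase, had -0.32 in cortex and -0.47 in ventricle. 1500004A13Rik was higher in both, by 0.37 in cortex and 0.81 in ventricle (adjusted p = 0.018). None of the tissue differences of Uqcrc2, Tsr3, Plac9a, Trim39 and 1500004A13Rik passed the test, and that of 1500004A13Rik, -0.44, had an unadjusted limma p of 0.0498.

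**Figure D3:**
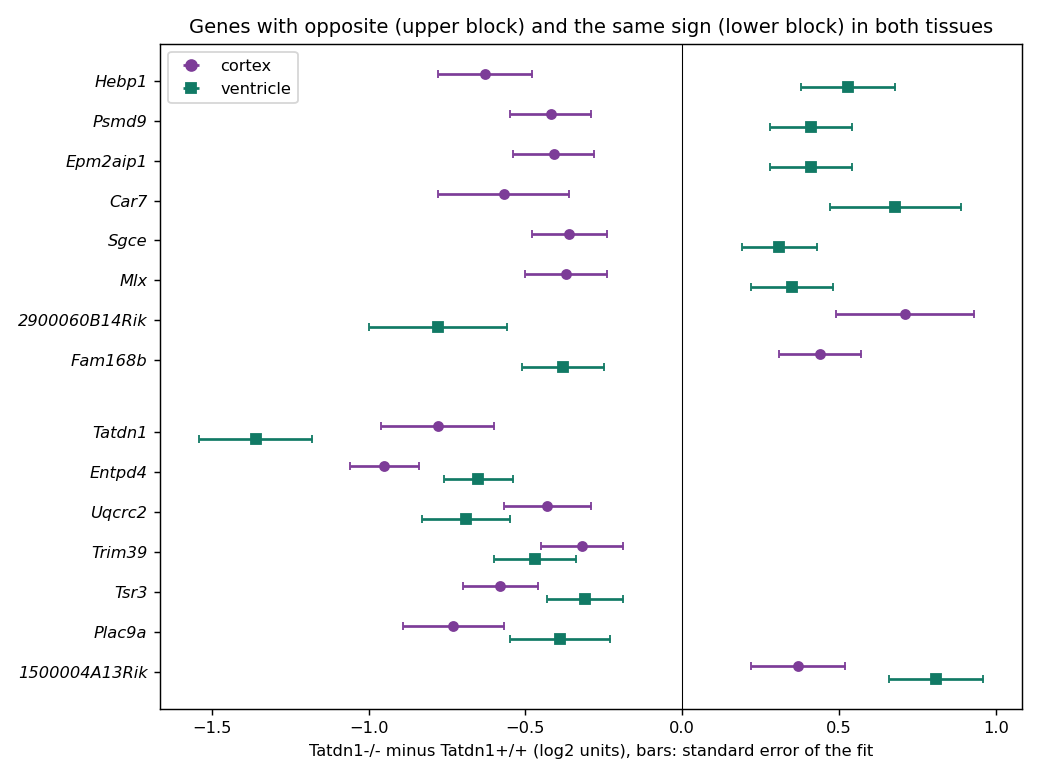
Knockout effect in cortex (purple circles) and ventricle (green squares), Tatdn1-/- minus Tatdn1+/+ in log2 units with the standard error of the fit, for genes with opposite sign (upper block) and the same sign (lower block) in both tissues. The upper block includes Psmd9 (-0.42 in cortex, 0.41 in ventricle), and the lower block Entpd4 (-0.95 and -0.65 in the same order).

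Groups of genes with related roles were then described by the number of members with an unadjusted p under 0.05 for the tissue difference, to be read against 3.22% positive and 6.31% negative over all probe sets, and by their median beside -0.040 over all probe sets. Probe sets above background in both tissues had 1.85% positive, 9.64% negative and a median of -0.093, and 65.3% were negative at any p. They are the nearer comparison for lists whose members are mostly expressed. The groups were written as lists with earlier results of these data known, no set test was run, and no member of a list mentioned below passed the test for the tissue difference.

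Immediate early genes, transcribed within minutes of a stimulus such as synaptic activity, had a median tissue difference of -0.432 over 51 measured members, with -0.288 in cortex and 0.033 in ventricle. The unadjusted p was under 0.05 at 14 members, all negative, and 42 of the 51 were negative at any p, as were 56.3% of all probe sets. In cortex 20 members had such a p and all were lower, beside 4.6% of all probe sets. Bdnf, the brain-derived neurotrophic factor, had values of 3.57, 5.02 and 5.18 in Tatdn1-/- cortex, against 5.60, 5.80 and 6.21 in Tatdn1+/+ cortex. Its ventricle values were 4.58, 4.76 and 5.18 in Tatdn1-/- mice, against 4.22, 4.42 and 5.11 in Tatdn1+/+ mice. The cortex groups did not overlap and the ventricle groups did. Bdnf fell by 1.04 in cortex (limma, adjusted p = 0.0291) and had an effect of 0.31 in ventricle, a tissue difference of -1.36 ± 0.29 (SE; adjusted p = 0.105). The mouse differences did not overlap, at -1.61 to 0.56 in Tatdn1-/- mice and 1.09 to 1.74 in Tatdn1+/+ mice.

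Ptgs2, the inducible cyclooxygenase, did not overlap in cortex either, with 4.34 to 4.78 in Tatdn1-/- mice and 5.11 to 5.98 in Tatdn1+/+ mice. Its tissue difference was -1.13. The transcription factor Myc had -0.94, with effects of -0.29 in cortex and 0.65 in ventricle, and Trib1, a pseudokinase, had -0.83. Neither Ptgs2 nor Myc was above background in both tissues. The median deviation of the members from their Tatdn1+/+ means was taken on each cortex array. Among Tatdn1-/- mice it was lowest in the male M78-0 (-0.521) and highest in the female F77-3 (-0.036). Among Tatdn1+/+ mice it lay between -0.251 and -0.191 in the 3 males and between 0.227 and 0.254 in the 3 females. The list median of the tissue difference was -0.324 in males and -0.552 in females, and -0.351 without M78-1.

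ATF4 targets and aminoacyl-tRNA synthetases, genes that the transcription factor ATF4 switches on when amino acids are short, were described next. Over 41 members the median tissue difference was -0.192, with -0.211 in cortex and 0.076 in ventricle, and 12 had an unadjusted p under 0.05, all negative. Over the 25 members above background in both tissues the median was also -0.192, beside -0.093 over all such probe sets, and 6 had such a p. Atf4 itself had values of 7.64, 7.77 and 7.80 in Tatdn1-/- cortex, against 8.0, 8.15 and 8.68 in Tatdn1+/+ cortex. In ventricle it had 7.63, 7.77 and 7.85 in Tatdn1-/- mice, against 7.38, 7.56 and 8.14 in Tatdn1+/+ mice. The cortex groups did not overlap, with effects of -0.48 in cortex and 0.08 in ventricle (tissue difference -0.56 ± 0.18, SE). Nupr1, a stress-induced chromatin protein, had -0.70 in cortex (limma, adjusted p = 0.0689) and 0.03 in ventricle. Asns, the asparagine synthetase, had 7.60, 8.22 and 8.46 in Tatdn1-/- cortex, against 8.18, 8.57 and 8.87 in Tatdn1+/+ cortex, and these overlapped. Its tissue difference was -0.81, and that of Sesn2, a leucine-sensing inhibitor of mTORC1, was -0.90 with cortex groups that did not overlap, below the background limit in both tissues. Neither Nupr1 nor Asns was above background in both tissues. The list median was -0.303 in males and -0.087 in females.

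Interferon-stimulated genes had a median tissue difference of -0.228 over 37 members, with -0.083 in cortex and 0.218 in ventricle. The unadjusted p was under 0.05 at 7 members, all negative, and in ventricle at 7, all higher, beside 5.79% of all probe sets. Adar, the RNA-editing adenosine deaminase, had values of 7.45, 7.76 and 7.92 in Tatdn1-/- cortex, against 7.79, 7.90 and 8.33 in Tatdn1+/+ cortex. Its ventricle values were 5.67, 5.78 and 5.95 in Tatdn1-/- mice, against 5.24, 5.47 and 5.63 in Tatdn1+/+ mice. The ventricle groups did not overlap, the effects were -0.22 in cortex and 0.35 in ventricle, and the tissue difference was -0.57 ± 0.16 (SE; limma, adjusted p = 0.219). The antiviral neighbours Ifit3 and Ifit3b, which are close copies, had tissue differences of -0.81 and -1.12, and Trim30a, below background in both tissues, had -0.96. In ventricle the median deviation of the members from their Tatdn1+/+ means ran between 0.017 and 0.591 in Tatdn1-/- mice. In Tatdn1+/+ ventricle it ran between -0.327 and -0.212 in the 3 males and between 0.233 and 0.256 in the 3 females. The groups overlapped, and the list median was -0.357 in males and -0.134 in females.

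Core clock genes, the transcriptional loop of the daily rhythm, had a median of -0.323 over 17 members, with -0.085 in cortex and 0.144 in ventricle, and 4 had an unadjusted p under 0.05, all negative. Bhlhe41, a repressor that acts on E-boxes, had values of 6.01, 6.59 and 6.82 in Tatdn1-/- cortex, against 6.17, 6.62 and 6.85 in Tatdn1+/+ cortex. In ventricle it had 6.89, 7.25 and 7.96 in Tatdn1-/- mice, against 6.32, 6.71 and 6.93 in Tatdn1+/+ mice. Only 1 Tatdn1-/- ventricle array reached into the Tatdn1+/+ range, and the tissue difference was -0.74 ± 0.23 (SE). The related Bhlhe40 had -0.71, with mouse differences that did not overlap (0.19 to 0.46 in Tatdn1-/- mice, 0.52 to 2.11 in Tatdn1+/+ mice). Per2, a repressor of the loop, had -0.92, and Ciart, another repressor, which was not above background in both tissues, -1.11. The hour of tissue collection was not found in the labels or methods. Without M78-1 the list median was -0.217. Clock output genes had a median of -0.275 over 16 members, with 3 at an unadjusted p under 0.05, all negative. No member had such a p after quantile normalisation within tissues (median -0.160) or over all arrays (-0.154), nor in males alone (-0.068), and 2 had it in females alone (-0.415). Both clock lists had the same lowest tissue difference (-1.11) and the same highest ventricle effect (1.24), so they are not read as separate groups.

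**Figure D4:**
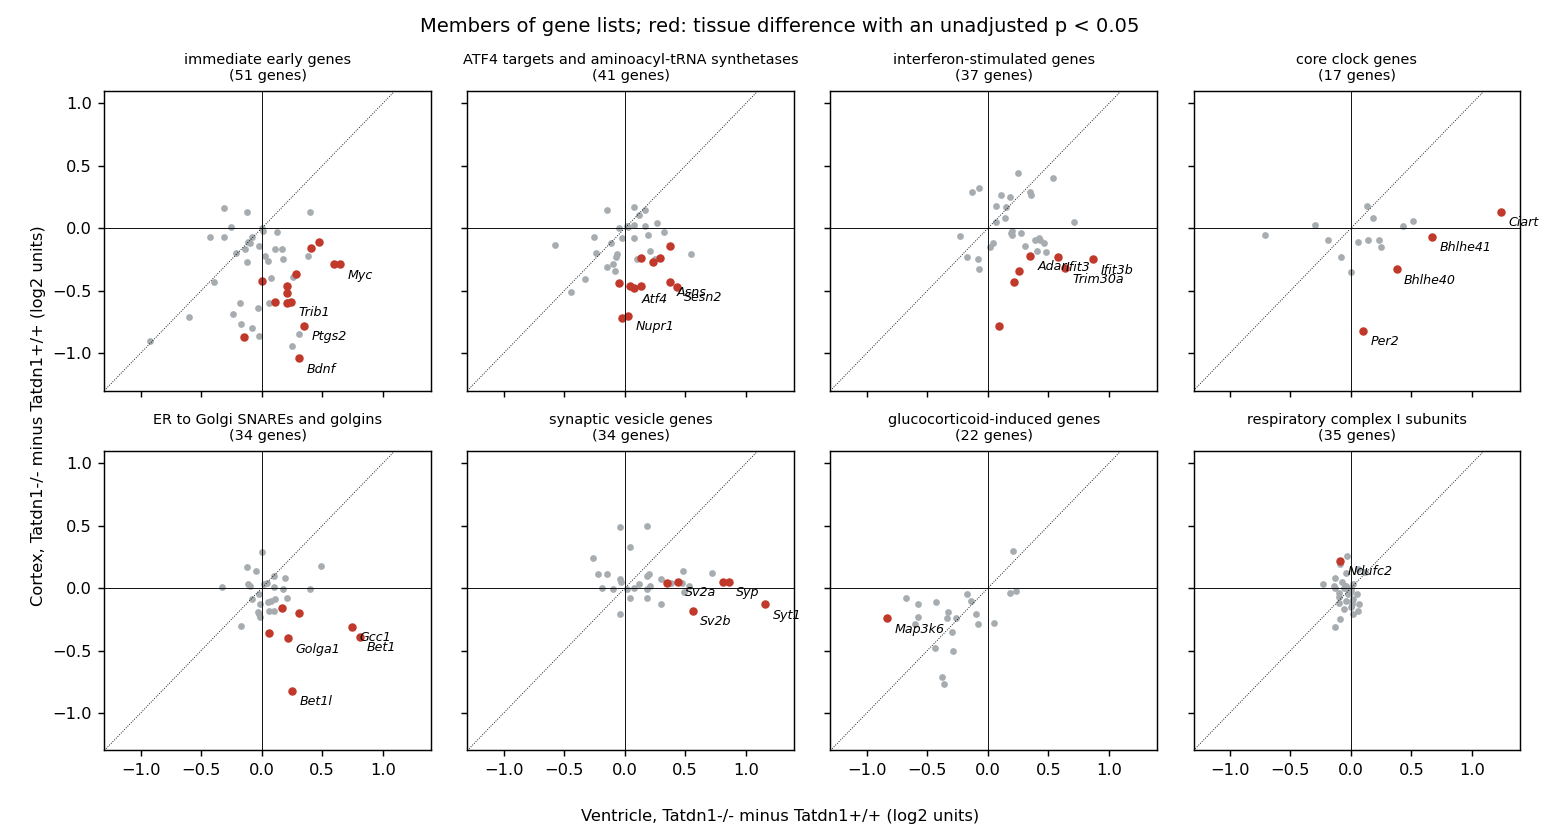
Knockout effect in cortex (vertical axis) against ventricle (horizontal axis), Tatdn1-/- minus Tatdn1+/+ in log2 units, for the members of 8 gene lists; red points have an unadjusted p under 0.05 for the tissue difference, and the dotted line marks equal effects. Immediate early genes lie mostly below the line (42 of 51 negative), and complex I subunits lie around it (16 of 35 negative).

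The promoters of members of these lists were taken from RefSeq (GRCm38.p6), from 250 bases before to 50 after a start, to show the sites through which the factors named above are known to act. Each motif was searched on both strands. Bdnf is shown for the immediate early genes, with the core of the cAMP response element (TGACG) in capitals, Nupr1 and Asns for the ATF4 composite site (TGATGNAA), Ifit3 and Ifit3b for the interferon-stimulated response element (GAAA, any 2 bases, GAAA), and Bhlhe41 for the E-box (CACGTG). The sequences run 5′ to 3′ on the strand of the gene, and a match on the other strand appears as its reverse complement.
Bdnf, chr2:109692186-109692485, plus strand: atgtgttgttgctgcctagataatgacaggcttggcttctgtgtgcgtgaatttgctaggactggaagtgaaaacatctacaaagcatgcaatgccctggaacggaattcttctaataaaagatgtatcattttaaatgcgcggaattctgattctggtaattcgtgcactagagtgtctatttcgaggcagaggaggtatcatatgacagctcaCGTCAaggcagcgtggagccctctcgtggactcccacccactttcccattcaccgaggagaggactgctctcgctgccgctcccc
Nupr1, chr7:126625421-126625720, minus strand: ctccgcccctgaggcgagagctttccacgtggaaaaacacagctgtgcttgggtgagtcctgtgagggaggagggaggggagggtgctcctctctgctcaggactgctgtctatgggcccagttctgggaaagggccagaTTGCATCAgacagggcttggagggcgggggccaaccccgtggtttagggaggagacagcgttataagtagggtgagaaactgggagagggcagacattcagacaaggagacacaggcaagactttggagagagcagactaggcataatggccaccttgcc
Asns, chr6:7693160-7693459, minus strand: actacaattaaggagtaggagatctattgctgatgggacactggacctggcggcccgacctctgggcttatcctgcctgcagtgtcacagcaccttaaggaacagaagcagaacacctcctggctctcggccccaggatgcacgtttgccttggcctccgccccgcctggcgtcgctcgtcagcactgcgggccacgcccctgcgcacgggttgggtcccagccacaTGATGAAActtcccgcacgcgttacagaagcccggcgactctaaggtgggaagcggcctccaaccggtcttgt
Ifit3, chr19:34583279-34583578, plus strand: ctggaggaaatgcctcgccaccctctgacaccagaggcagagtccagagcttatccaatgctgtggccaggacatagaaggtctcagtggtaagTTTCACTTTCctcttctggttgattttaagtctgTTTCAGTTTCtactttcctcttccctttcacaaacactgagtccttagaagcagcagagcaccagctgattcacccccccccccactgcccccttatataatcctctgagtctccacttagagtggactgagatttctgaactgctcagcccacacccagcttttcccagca
Ifit3b, chr19:34607707-34608006, plus strand: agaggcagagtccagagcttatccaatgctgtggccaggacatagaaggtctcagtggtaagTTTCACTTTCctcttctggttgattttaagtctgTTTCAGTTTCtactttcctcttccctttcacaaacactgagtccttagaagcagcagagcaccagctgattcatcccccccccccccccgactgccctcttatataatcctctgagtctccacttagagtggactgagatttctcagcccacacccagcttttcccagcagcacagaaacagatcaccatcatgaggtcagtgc
Bhlhe41, chr6:145865371-145865670, minus strand: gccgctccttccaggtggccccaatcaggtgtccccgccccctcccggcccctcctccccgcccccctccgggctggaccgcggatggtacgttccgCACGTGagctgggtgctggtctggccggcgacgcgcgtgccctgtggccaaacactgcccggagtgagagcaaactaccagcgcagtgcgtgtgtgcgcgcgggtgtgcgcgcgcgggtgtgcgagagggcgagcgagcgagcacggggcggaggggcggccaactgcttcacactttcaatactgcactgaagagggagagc

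Ifit3 and Ifit3b each held 2 matches and the other promoters shown held 1 each. The Bdnf window shown was the only one of the 7 starts of that gene in the table with a match. The core of the cAMP response element stood in 55.6% of the 54 promoters of measured immediate early genes, against 20.8% of all 32851 promoters. The whole element (TGACGTCA), which contains the core on both strands, stood in 7.41% against 1.79%. The ATF4 composite site stood in 29.7% of 37 promoters against 3.97%, the interferon-stimulated response element in 50% of 34 against 3.44%, and the E-box in 18.2% of 22 against 7.15%. Promoters were found for 37 of 51, 33 of 41, 28 of 37 and 14 of 17 genes of the 4 lists in this order. A match is a description of the letters in these windows.

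Synaptic vesicle genes, which serve transmitter release in neurons, had a median tissue difference of -0.178 over 34 members, with medians of 0.039 in cortex and 0.184 in ventricle, and 6 had an unadjusted p under 0.05, all negative. In ventricle 10 had such a p, all higher (5.79% of all probe sets). Only 7 of the 34 were above background in ventricle, where their median Tatdn1+/+ level was 2.46. Syp, the vesicle membrane protein synaptophysin, had 11.25, 11.34 and 11.48 in Tatdn1-/- cortex, against 10.90, 11.32 and 11.58 in Tatdn1+/+ cortex. Its ventricle values were 4.39, 5.07 and 6.21 in Tatdn1-/- mice, against 3.74, 4.11 and 5.03 in Tatdn1+/+ mice. The groups overlapped in both tissues, and the tissue difference was -0.81 ± 0.31 (SE), or -0.59 without M78-1. Syt1, the calcium sensor of release, had -1.29, or -0.86 without M78-1, and the vesicle proteins Sv2b and Sv2a had -0.74 and -0.40.

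Neuron markers moved on the same arrays, and 5 of the 21 measured were above background in ventricle. Of 21 neuron markers, 4 had a higher and 1 a lower value in Tatdn1-/- ventricle at an unadjusted p under 0.05, beside 5.79% and 3.66% of all probe sets. At any p 14 were higher and 7 lower. Their summed log2 level was 71.3 to 92.1 in Tatdn1-/- ventricle and 69.7 to 78.3 in Tatdn1+/+ ventricle. Among the defining markers, Rbfox3 had a ventricle mean of 1.78 in Tatdn1-/- mice and 1.55 in Tatdn1+/+ mice, below background, and Snap25 one of 4.64 in Tatdn1-/- mice and 3.92 in Tatdn1+/+ mice. Camk2a, the highest of them in ventricle, spanned 8.55 to 9.06 in Tatdn1-/- mice and 8.55 to 9.08 in Tatdn1+/+ mice. Stmn2 spanned 4.77 to 6.06 and 5.18 to 5.78 in the same order. The median deviation of the neuron markers from their Tatdn1+/+ means was highest in the ventricle of M78-1 (0.679, against 0.133 in the next Tatdn1-/- mouse). That of the synaptic vesicle genes was also highest there (0.617). Atrial markers stood out in another mouse, F77-2, with a median deviation of 1.06 in ventricle. Without M78-1 the median tissue difference was -0.055 for synaptic vesicle genes and 0.099 for neuron markers (-0.178 and -0.109 in the same order with it). The part of such markers in the synaptic values was not tested.

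ER to Golgi SNAREs and golgins, which carry cargo through the secretory pathway, had a median of -0.166 over 34 members, with 7 at an unadjusted p under 0.05, all negative. Gcc1 had the smallest p of the 7, and Bet1 a tissue difference of larger size (-1.19). Neither Gcc1 nor Bet1 was above background in both tissues. Over the 29 members that were, the median was -0.132, beside -0.093 over all such probe sets, and 3 had such a p, all negative. Under quantile normalisation within tissues or over all arrays, 3 were negative and 2 positive at such a p. The list median was -0.280 in males and -0.001 in females. Potassium channel genes had a median of -0.167 over 34 members, with 3 negative and 1 positive at an unadjusted p under 0.05. The negative ones were Kcnj6, Kcnj4 and Kcnk3, with tissue differences of -0.83, -0.57 and -0.58, and the positive one was Kcnc1, with 0.51. Of these only Kcnk3 was above background in both tissues.

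A list of strain-variable genes had a median tissue difference of -0.320 over 16 members, with -0.680 in cortex and 0.078 in ventricle. Of its members 15 were negative at any p, and 4 negative and 1 positive had an unadjusted p under 0.05. Its lowest tissue difference (-2.18) is the value given above for Ccl21b, so the list is not separate from genes already described. For the knockout effect itself 7 members passed in cortex and 2 in ventricle (limma, adjusted p under 0.05), beside 0.153% and 0.108% of all probe sets. The lists that follow had similar effects in both tissues or few members past the unadjusted threshold. Glucocorticoid-induced genes had a median effect of -0.233 in cortex and -0.315 in ventricle, and a median tissue difference of 0.028 over 22 members, with 1 at an unadjusted p under 0.05. This was Map3k6, a stress kinase, which fell in ventricle by 0.83 (limma, adjusted p = 0.0229) and had -0.24 in cortex. It was not above background in both tissues. Respiratory complex I subunits had a median tissue difference of 0.005 over 35 members, all above background in both tissues, with 1 at an unadjusted p under 0.05. Nucleases of DNA degradation had -0.016 over 20 members with none, and fatty acid oxidation genes -0.040 over 28 members with 1. Collagens had 0.076 over 29 members, with 3 at such a p, all positive, and 1 above background in both tissues. Without M78-1 their median was -0.061, with 2 positive and 2 negative at such a p, and in females alone it was -0.208.

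Markers of striatal medium spiny neurons, which a dissection of cortex can carry, had medians of 0.302 in cortex and 0.211 in ventricle and a median tissue difference of 0.092 over 15 members, with 2 at an unadjusted p under 0.05, both positive. In cortex each of the 15 means was above that of the Tatdn1+/+ mice. Over all probe sets, 53.9% had a lower mean in Tatdn1-/- cortex. On the cortex arrays the members' median deviation from their Tatdn1+/+ means overlapped between genotypes. It ran between 0.11 and 0.46 in Tatdn1-/- mice and between -0.47 and 0.41 in Tatdn1+/+ mice. In ventricle 4 of these genes were above background. Without M78-1 the median tissue difference was 0.187, with 1 at an unadjusted p under 0.05. Oligodendrocyte markers had a median tissue difference of 0.173 over 17 members, with 1 at an unadjusted p under 0.05. This was Trf, the iron carrier transferrin, with 9.06 to 9.58 in Tatdn1-/- cortex and 8.53 to 9.51 in Tatdn1+/+ cortex, and a tissue difference of 0.53.

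The balance of negative over positive tissue differences differed with the level of the probe sets and the scaling of the arrays. Among the 7623 probe sets above background in both tissues, 141 (1.85%) were positive and 735 (9.64%) negative at an unadjusted p under 0.05, whereas among the 10736 above background in neither, 479 (4.46%) were positive and 287 (2.67%) negative. The median tissue difference was 0.016 at mean levels below 2, -0.139 at levels from 5 to 6 and -0.019 at levels of 8 and more. Of the 2118 probe sets, 66.2% were negative as deposited, 49.9% of those found after quantile normalisation within each tissue, 50% after quantile normalisation over all 24 arrays, and 42% after centring each array on its median. The median over probe sets above background in both tissues was -0.093 as deposited and -0.007, -0.006 and -0.017 under these scalings. The medians of the immediate early genes (-0.319, -0.361 and -0.356), core clock genes (-0.256, -0.229 and -0.247) and interferon-stimulated genes (-0.22, -0.202 and -0.152) stayed negative under all 3. Those of the ATF4 targets were -0.095, -0.094 and -0.116, and those of the ER to Golgi genes -0.068, -0.070 and -0.090.

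**Figure D5:**
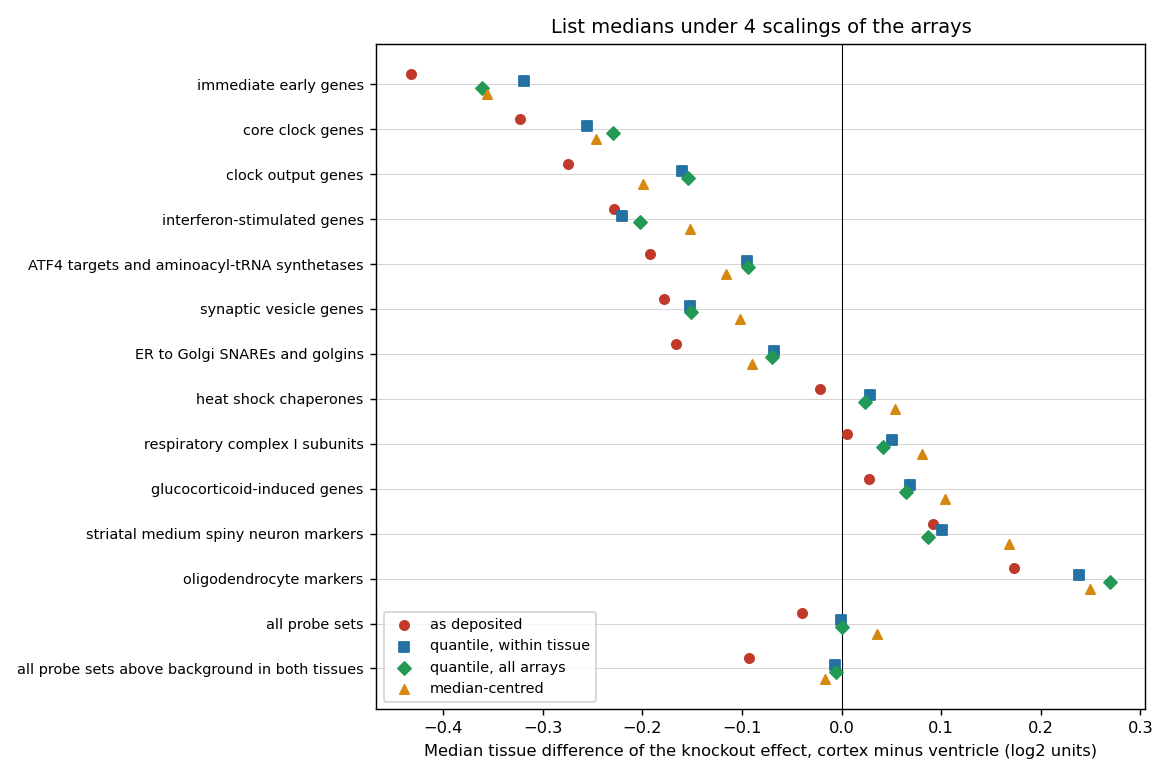
Median tissue difference (cortex minus ventricle, log2 units) of 12 gene lists and of all probe sets, with the arrays as deposited and under 3 other scalings. The immediate early genes lie at -0.432 as deposited and between -0.361 and -0.319 otherwise, whereas probe sets above background in both tissues lie at -0.093 as deposited and between -0.017 and -0.006 otherwise.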

How the data were processed

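Log2 expression values of 24 Mouse Clariom S HT arrays, 1 per tissue and mouse, were used as the authors had deposited them, made with RMA (background correction, quantile normalization and median polish; version and the arrays normalized together not given in the sources used here). Of 29129 entries, 22206 gene-level probe sets were kept. Symbols came from the platform annotation, and sequences from RefSeq (GRCm38.p6). Array number limits the precision.

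The 4 groups were fitted together with limma 3.58.1 in R 4.3.3 (lmFit, eBayes) with no covariate, with Benjamini-Hochberg adjustment over all 22206 probe sets and a threshold of 0.05. Values after ± in the text are standard errors unless given as SD. Single genes were also tested with a two-sided exact permutation test over all 924 splits of the 12 mice. Both tissues came from the same mice by the methods and the animal codes in the labels, and residuals of a mouse's cortex and ventricle arrays had correlations between -0.08 and 0.046 (consensus -0.0137), so the pairing rests on the design alone. Alternatives were the mouse as a block, sex terms, 3 scalings, 2 filters on low values, array weights, a variance trend with robust eBayes, each tissue or sex alone, and leaving out each mouse. On simulated data of the same design, 50.7% of 67 probe sets changed by 1 log2 unit in cortex alone were called, 95.5% of 67 at 1.5, and 8 of 21806 unchanged ones. The simulation also held 66 changed by 2 log2 units in cortex alone. So many changed probe sets ease the adjusted threshold, and with 3 calls in these data the shares called can be lower.

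Named were Tatdn1, the called genes, the 10 with a positive and the 10 with a negative tissue difference of smallest p, the 8 with opposite and the 8 with the same sign in both tissues, and up to 4 members of each of 32 lists (116 probe sets), from which the text takes its examples. A gene with several probe sets entered a list with that of highest mean. Members and lists were chosen with earlier results of these data known. Python 3.11.15, numpy 2.4.6, pandas 2.3.3, matplotlib 3.10.9 and statmod 1.5.0 were also used.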

Additional observations from a re-analysis of the deposited data

Results flagged for a closer look

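The knockout effect differed between the tissues, by the interaction term, at Hebp1 (-1.17), E130304I02Rik (1.39) and Afmid (-1.35), as described above.

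Single arrays stood apart from the other 5 of their group, by Dixon's test, in 41 of 464 groups of named probe sets. Chance flags about 1 in 20 groups. The probe sets of the Ccl21 cluster are not independent, and they account for many of these arrays. In Tatdn1-/- cortex, female F77-3 was high at Gm10591 (6.18 and 5.25 at its probe sets), Ccl21b (5.25 and 5.48), Ccl21c (5.48) and Gm13304 (6.06). In Tatdn1-/- ventricle, male M78-0 was low at Gm10591 (6.46), Gm13304 (6.41), Ccl21b and Ccl21c (5.78 each) and Ccl21a (5.55).

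Male M78-1 had the largest number of any mouse, 11. Its cortex array was low at Bdnf (3.57), Per2 (3.96), Kcnj4 (5.83), Aifm1 (4.87), Bet1l (2.76), Cck (9.04), Mag (5.92) and Hspb8 (2.39), and high at Gjb5 (3.04) and Plin1 (2.86). Its ventricle array was high at Cck (4.42).

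The other arrays from Tatdn1-/- mice were in ventricle F77-2 at Afmid (6.35) and Trim30a (4.92), M78-0 at Sgce (6.32) and Rgs5 (8.30), and F77-1 at Fgfr3 (5.03) and Abcc9 (9.14). In cortex they were F77-2 at Entpd4 (8.28), M77-1 at Ptgs2 (4.34), F77-3 at Acadm (4.67) and M78-0 at Trex2 (0.75). From Tatdn1+/+ mice they were, in ventricle, F76-3 at Plac9a (5.77) and Col3a1 (4.40), and M75-2 at Bdnf (5.11) and Myc (2.97). In Tatdn1+/+ cortex they were M75-2 at Adar (8.33), Acot2 (6.60) and Hand2 (1.39), M75-1 at Rtn1 (10.41) and F76-1 at Slc6a13 (4.09).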

How the results depend on the processing

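The 3 probe sets called for the tissue difference became 0 with the mouse as a fixed replicate block, 1 with sex terms, 0, 5 and 0 under quantile normalisation within tissues, over all arrays and median centring, 31 among probe sets above background in both tissues (1 of the 3, Hebp1, among them), 7 with array weights, 0 with a variance trend, and 0 in males and in females alone. Without 1 mouse they were 0 to 13: 13 without F77-3 (3 of them shared), 10 without M78-0 (2 shared), 1 without M78-1 (Afmid), 1 without F76-3 (Zfp563, not among the 3), and 0 without each other mouse. Of the 13, 6 were probe sets named for Ccl21 copies, as were 5 of the 10, among them Gm10591 without F77-3 (limma, adjusted p = 1.4e-05). Further calls without a gene symbol had similar tissue differences, such as -3.65 without F77-3. The 31 also held probe sets named for Ccl21 copies. Some of these probe sets held identical values, so the calls are not independent. The random block gave the same 3.

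The cortex calls (34) became 2 with each tissue alone, 6 in males, 1 in females, and 11 to 31 without 1 mouse (11 without M75-1, 18 without M78-1, 20 without M77-1, 21 without F76-1). The ventricle calls (24) became 10 above background, 38 with a variance trend, 3 with each tissue alone, 0 in males, 10 in females, and 14 to 33 without 1 mouse (14 without F77-1). The 2118 probe sets at an unadjusted p under 0.05 became 1021 above background and 1346 in females. Those with the same sign (67) became 37 above background, 42 in males and 89 in females, and those with opposite signs (107) became 67 above background, 52 in males, 51 in females, and 70 to 137 without 1 mouse (70 without F77-2). The cause of these changes was not tested, beyond fewer arrays or probe sets where these were left out.

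Over 24 alternatives Hebp1 ranged from -1.31 to -1.0 (limma, adjusted p from 0.00125 to 0.646), and over 23 Afmid from -1.46 to -1.16 (0.00783 to 0.646) and E130304I02Rik from 1.2 to 1.5 (0.00399 to 0.646). Signs turned at a probe set of Entpd4 (-0.04 as deposited; 0.04 when centred, 0.13 in males, -0.13 to 0.09 without 1 mouse, positive without M75-0, 0.06, F76-2, 0.03, and F77-2, 0.09), Trim39 (-0.09 in males), Ifit3 (0.00 in females) and Aif1 (0.02 in females). Among the other list medians, collagens turned to -0.533 above background and -0.208 in females, and heat shock chaperones had -0.022 as deposited and 0.024 to 0.054 under the scalings. At 6 mice a group, a difference of 1 log2 unit in cortex alone was called at 50.7% of 67 simulated probe sets. The share can be lower in these data, which had fewer calls than the simulation. This limits what a missed call shows.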
